A study of Caenorhabditis elegans with 12 samples.

Results

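The 34 genes described here drive or restrain cell division and DNA replication in the nematode Caenorhabditis elegans. They were taken from the deposited gene counts by matching WormBase gene identifiers to a list of symbols. All 34 were found among the 46934 genes of the table. The matching used no measured values, but the list was chosen with earlier results of these data known. They fall into 8 roles: inhibitors of cyclin-dependent kinases, G1 cyclins and kinases, S and M phase cyclins, kinases and phosphatases, the Rb and E2F regulators, origin licensing, fork and nucleotide supply, mitotic kinases with a kinetochore scaffold, and ubiquitin ligases.

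Cells enter S phase when G1 cyclins and their kinases overcome the inhibitors and Rb, and the E2F factors then permit transcription of replication genes. The MCM helicase is loaded onto origins before replication starts, and the B cyclins with CDK1 later drive mitosis. In larvae that hatch without food, the blast cells of the body stay undivided, and the inhibitor cki-1 is known to take part in that arrest. Oocytes and early embryos, in contrast, hold large maternal stores of replication and mitosis transcripts.

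RNA was sequenced from whole larvae of the first stage (L1) that had spent 48 h without food in M9 buffer after hypochlorite release of the eggs. The 3 groups were N2, the wild type, HBR2340, which carries flp-11(syb1445), and PHX2193, which carries flp-11(syb2193), with 4 biological replicates each, lettered A to D. The gene flp-11 encodes neuropeptides of the RIS interneuron, and what each allele changes is not stated in the labels. The comparisons ask how RNA levels of arrested larvae differ between the strains.

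Total counts per library were 23068345 to 34832403 in N2, 25642142 to 28865328 in HBR2340 and 23941071 to 30526360 in PHX2193. Levels are CPM, read counts scaled by library size with TMM factors. A level made of 3 counts was 0.0822 to 0.170 CPM, and the lowest count of any of the 34 genes in any library was 11. The labelled gene, flp-11, was at 205 to 367 CPM in N2, 108 to 142.1 CPM in HBR2340 and at 19.2 to 23.2 CPM in PHX2193. The RNA is from whole animals, so fewer cells of a type and less RNA per cell cannot be told apart. Marker genes of intestine, body muscle and neurons were present in every library, with summed levels of at least 1392, 3084 and 2548 CPM. Among the 9 markers of seam and other epidermal blast cells in the table, nhr-73 was at 0 in every library. Libraries N2 D and PHX2193 D stood apart from the other replicates in the genes described here. N2 B stood apart across the whole table, with 12.8% of 15908 genes more than 2-fold below every other N2 library, where N2 A, C and D had 0.635%, 1.33% and 0.484%. Results that rest on these 3 libraries are given with and without them.

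Per unit of transcript length (TPM), the ubiquitin ligase gene lin-23 had the highest median of the set in N2 and HBR2340 and the inhibitor cki-1 in PHX2193. The median level in N2 was 73.2 TPM for lin-23, 50.2 TPM for cul-1 and 49.3 TPM for cki-1, followed by fzr-1 at 30.5 TPM and rnr-2 at 22.8 TPM. In HBR2340 the first 5 stood in the order lin-23, cul-1, cki-1, fzr-1 and rnr-2 as well, with cki-1 at a median of 33.8 TPM. In PHX2193 cki-1 came first, with a median of 90.4 TPM against 77.8 TPM for lin-23. The means there were 86.3 ± 12.5 TPM (SD) for cki-1 and 77.8 ± 3.42 TPM for lin-23, a distance within the SD of cki-1. The licensing factor cdt-1 had the lowest median in each strain, at 0.872 TPM in N2, 1.123 TPM in HBR2340 and 0.855 TPM in PHX2193. The medians of the G1 cyclins cyd-1 and cye-1 in N2, 2.78 and 3.14 TPM, were far below that of cki-1. The SDs of cul-1 and cki-1 in N2, 17.4 and 16.3 TPM, were larger than the distance between these genes.

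**Figure D1:**
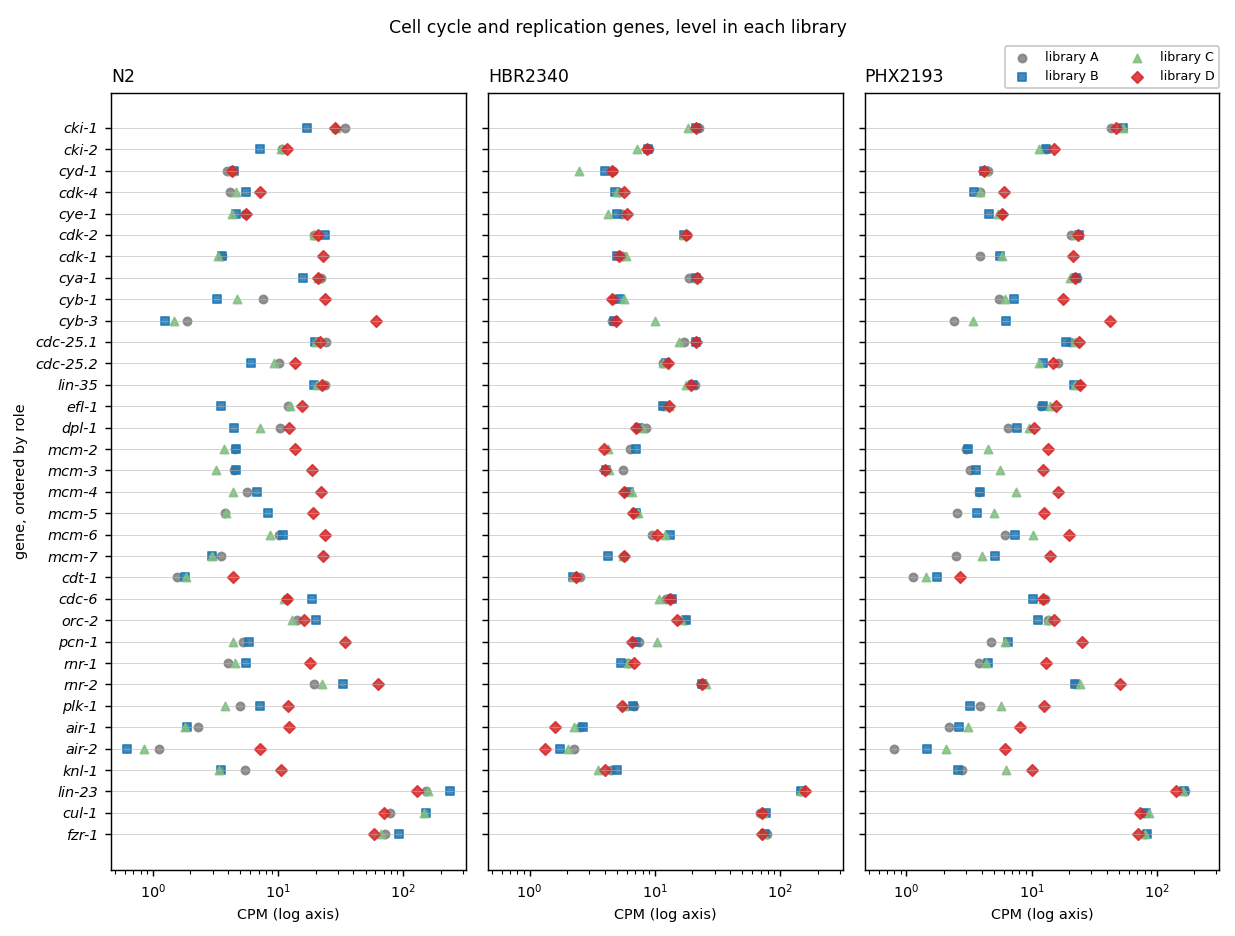
Level of each of the 34 genes in each library, in CPM on a log axis, with 1 panel per strain and 1 marker shape per library. In N2 and PHX2193 the red diamonds (library D) of cdk-1, the B cyclins, the MCM genes, pcn-1, rnr-1 and the mitotic kinases lie well to the right of the other 3 libraries. In HBR2340 none of these genes has library D more than 1.23 times the median of the other 3.

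Strains were compared with edgeR's quasi-likelihood test over 15908 genes, with p-values adjusted by the method of Benjamini and Hochberg, and genes under 0.05 after adjustment were called. In PHX2193 against HBR2340, 3 of the 34 genes were called higher and 0 lower, beside 10.1% and 9.39% of all genes tested. These shares are close for the higher genes, so the count itself does not set the 34 genes apart. DESeq2 and limma-voom each called 3 higher and 0 lower, and 5 of the 34 were under an unadjusted edgeR p of 0.05. The 3 genes were cki-1, cki-2 and cdk-2, all regulators of the step from G1 to S phase. In HBR2340 against N2 edgeR called 0 of 34, beside 3.34% of all genes higher and 4.03% lower, with 2 under an unadjusted p of 0.05 and 0 called by DESeq2 or limma-voom. In PHX2193 against N2 edgeR called 0 of 34, beside 0.163% higher and 0.201% lower, with 4 under an unadjusted p of 0.05, 1 called by DESeq2 (cki-1) and 0 by limma-voom. The median log2 fold change of the 34 genes was 0.17 in PHX2193 against HBR2340, −0.25 in HBR2340 against N2 and −0.12 in PHX2193 against N2, where the medians of all genes tested were 0.02, −0.04 and −0.01. Each pair of these comparisons shares the libraries of 1 strain.

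Complete separation of the libraries was also rare. Between PHX2193 and HBR2340, all 4 libraries of 1 strain lay beyond all 4 of the other in 4 genes upward (cki-1, cki-2, cdk-2 and lin-35) and 1 downward (orc-2), beside 17.6% and 17.9% of all genes. In PHX2193 against N2 cki-1 alone was separated, upward, beside 3.31% of all genes upward and 2.73% downward. In HBR2340 against N2 cdk-2 alone was separated, downward, beside 7.52% of all genes upward and 6.32% downward.

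The inhibitor cki-1 (WBGene00000516, protein coding, WBcel235 chromosome II, 7811240 to 7812105, plus strand) encodes a Cip/Kip protein that blocks cyclin-dependent kinases and holds cells in G1. The gene was at 34.6, 17.1, 29.0 and 28.5 CPM in N2 libraries A to D, 22.7, 21.5, 18.4 and 21.4 CPM in HBR2340 A to D and at 42.9, 54.1, 54.2 and 47.1 CPM in PHX2193 A to D. Every PHX2193 library was above every library of both other strains. N2 B was the lowest of all 12, under the 4 HBR2340 libraries, while the other N2 libraries were above them. PHX2193 had a mean of 49.6 ± 5.57 CPM (SD, n = 4) and HBR2340 a mean of 21.0 ± 1.82 CPM. The log2 fold change of 1.24 ± 0.18 (SE) was called (edgeR adjusted p = 0.000416). This call held in each of 12 fits that left out 1 library, with log2 fold changes of 1.195 to 1.302 and edgeR adjusted p from 2.73e-06 to 0.00224.

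Against N2, whose mean was 27.3 ± 7.35 CPM, cki-1 in PHX2193 had a log2 fold change of 0.86 ± 0.18 and was not called (edgeR adjusted p = 0.0704). It was called without N2 B (0.69 ± 0.11, edgeR adjusted p = 0.0115), without N2 A (0.99, edgeR adjusted p = 0.0384), with no filter on low counts (0.85, edgeR adjusted p = 0.0252) and by DESeq2 (0.85, adjusted p = 0.000813). Over the 12 fits that left out 1 library the edgeR adjusted p was 0.0115 to 0.205. In HBR2340 against N2 the log2 fold change was −0.38 ± 0.18 (edgeR adjusted p = 0.239). Without N2 B it was −0.56 ± 0.11 and was called (edgeR adjusted p = 0.00429), while in the other fits that left out 1 library it was not, with adjusted p up to 0.441.

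The neighbouring paralogue cki-2 (WBGene00000517, protein coding, WBcel235 chromosome II, 7816499 to 7820281, plus strand) encodes a second inhibitor of the same family. It was at 10.7, 7.203, 10.6 and 11.8 CPM in N2 libraries A to D, 9.02, 8.77, 7.18 and 8.72 CPM in HBR2340 and at 12.99, 13.1, 11.5 and 15.2 CPM in PHX2193. PHX2193 lay above all of HBR2340, while PHX2193 C was within the range of N2. PHX2193 against HBR2340 gave a log2 fold change of 0.65 ± 0.16 (edgeR adjusted p = 0.0128). Its call held in all 12 fits without 1 library, with edgeR adjusted p from 0.000802 to 0.0412. Values against N2 were 0.39 ± 0.16 in PHX2193 (edgeR adjusted p = 0.373) and −0.26 ± 0.16 in HBR2340 (edgeR adjusted p = 0.400). In HBR2340 the value without N2 B was −0.40 ± 0.12 and was called (edgeR adjusted p = 0.0407, highest adjusted p over the 12 such fits 0.621). N2 B was the lowest N2 library for both inhibitors. Without N2 B, 0 of the 34 genes were called higher and 2, both inhibitors, lower in HBR2340 against N2, beside 7.93% and 9.8% of all genes. In that fit PHX2193 against N2 had 1 higher and 0 lower, beside 0.739% and 0.665%, and PHX2193 against HBR2340 had 4 higher and 0 lower, beside 17.3% and 15.6%.

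**Figure D2:**
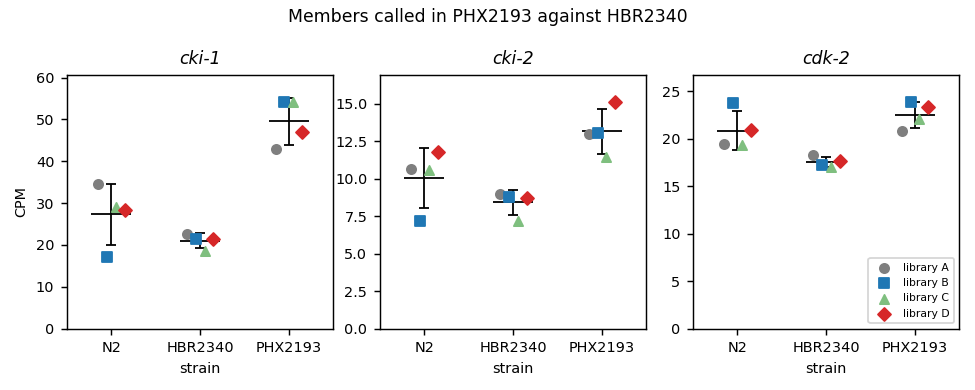
Level in CPM of cki-1, cki-2 and cdk-2 in each library of the 3 strains, on axes that start at 0. Horizontal bars are means and whiskers are SD of 4 libraries, and in each panel the 4 PHX2193 libraries lie above the 4 HBR2340 libraries.

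Among the G1 cyclins and kinases, 1 of 4 genes was called in PHX2193 against HBR2340 and 0 of 4 in each of the other comparisons. The called gene, cdk-2 (WBGene00019362, protein coding, chromosome I), encodes the kinase that acts with cyclin E at S phase entry. It was at 19.4, 23.7, 19.4 and 20.9 CPM in N2 libraries A to D, 18.2, 17.3, 17.1 and 17.6 CPM in HBR2340 and at 20.9, 23.9, 22.05 and 23.3 CPM in PHX2193. HBR2340 was below every library of the other strains, which overlapped each other. The log2 fold change of PHX2193 against HBR2340 was 0.36 ± 0.10 (edgeR adjusted p = 0.0187), the smallest of the 3 called changes. It was not called without PHX2193 B (0.33, edgeR adjusted p = 0.0630), without PHX2193 D (0.34, edgeR adjusted p = 0.0548) or with no filter (0.38, edgeR adjusted p = 0.0888). HBR2340 against N2 gave −0.25 ± 0.10 (edgeR adjusted p = 0.153). The antisense gene anr-45 shares 76 bases, 3.26% of the exon bases of cdk-2, and had 2565 counts in all 12 libraries. Since strandedness is not given, reads from that overlap cannot be told apart.

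The other genes of this role overlapped between the strains. The cyclin E gene cye-1 was at 5.42, 4.65, 4.33 and 5.53 CPM in N2 libraries A to D, 5.43, 4.95, 4.22 and 5.96 CPM in HBR2340 and at 5.76, 4.54, 5.38 and 5.82 CPM in PHX2193. Its log2 fold changes were 0.04 ± 0.17 in HBR2340 against N2, 0.11 ± 0.17 in PHX2193 against N2 and 0.06 ± 0.17 in PHX2193 against HBR2340, within 1 SE of 0 in each. The kinase gene cdk-4, which acts with cyclin D, was at 4.12, 5.50, 4.58 and 7.21 CPM in N2, 5.19, 4.79, 4.99 and 5.64 CPM in HBR2340 and at 3.87, 3.46, 3.91 and 6.03 CPM in PHX2193. Library D was the highest in each strain. The log2 fold change of cdk-4 in PHX2193 against HBR2340 was −0.25 ± 0.22 (edgeR adjusted p = 0.479). The cyclin D gene cyd-1 ranged from 2.46 CPM, in HBR2340 C, to 4.60 CPM, in HBR2340 A, with the N2 and PHX2193 libraries between 3.90 and 4.50 CPM.

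Markers of body muscle, intestine, neurons and sperm were compared between both mutant strains. Over all genes tested, 10.1% were called higher and 9.39% lower in PHX2193 against HBR2340. A single call in a list of 3 to 8 markers does not set that list apart. Of 5 body muscle markers, 4 were called lower in PHX2193 than in HBR2340. The summed level of these 5 was 3084 to 5945 CPM in PHX2193, 14110 to 15280 CPM in HBR2340 and 5836 to 11040 CPM in N2. In HBR2340 against N2, 3 of these 5 were called higher, of which unc-15 stayed called in all 12 fits without 1 library, while unc-54 and myo-3 each lost the call without any 1 HBR2340 library, without N2 A, C or D and without PHX2193 B, and unc-54 also without PHX2193 C. Of 8 intestine markers, 1 was called higher in PHX2193 than in HBR2340, the gut transcription factor gene elt-2 (log2 fold change 1.135 ± 0.21, edgeR adjusted p = 0.00249), and 3 were without N2 B. The same gene was called lower in HBR2340 against N2 (−0.91 ± 0.21, edgeR adjusted p = 0.0215), a call that ended without N2 A, HBR2340 A or HBR2340 C and without both D libraries (highest edgeR adjusted p 0.0658). The summed level of the intestine markers was 1427 to 2125 CPM in PHX2193, 1399 to 2087 CPM in HBR2340 and 1392 to 2359 CPM in N2. In PHX2193 against HBR2340, 1 of 7 neuron markers was called lower (rab-3, −0.43 ± 0.11, edgeR adjusted p = 0.0150) and 1 of 3 sperm markers tested was called higher (spe-9), a call that ended without HBR2340 A or D or PHX2193 B or C (highest edgeR adjusted p 0.0846). The part of these differences in the levels of cki-1, cki-2 and cdk-2 was not tested. The summed level of the markers of epidermal blast cells was 97.0 to 121 CPM in PHX2193, 103 to 119.1 CPM in HBR2340 and 104 to 133 CPM in N2. Of 8 such markers tested 0 were called higher and 1 lower in PHX2193 against HBR2340. That gene was grd-10 (log2 fold change −1.42 ± 0.43, edgeR adjusted p = 0.0352), and its call ended without HBR2340 B, C or D or PHX2193 A, C or D (highest edgeR adjusted p 0.1001).

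None of the 6 S and M phase cyclin, kinase and phosphatase genes was called by edgeR, DESeq2 or limma-voom in any comparison, with 1, cdc-25.2, under an unadjusted edgeR p of 0.05 in PHX2193 against N2. Single libraries held most of the spread. The mitotic kinase gene cdk-1 (WBGene00000405, protein coding, WBcel235 chromosome III, 9747472 to 9748852, plus strand) was at 3.56, 3.57, 3.34 and 22.7 CPM in N2 libraries A to D, 5.43, 5.03, 5.91 and 5.19 CPM in HBR2340 and at 3.87, 5.56, 5.86 and 21.6 CPM in PHX2193. Libraries N2 D and PHX2193 D were far above all others. The log2 fold change of HBR2340 against N2 was −0.63 ± 0.69 (edgeR adjusted p = 0.669) and turned to 0.63 ± 0.49 without N2 D (edgeR adjusted p = 0.519).

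The B cyclins behaved alike. Cyclin B1, from cyb-1, was at 7.59, 3.23, 4.71 and 23.6 CPM in N2 libraries A to D, 4.70, 5.26, 5.70 and 4.58 CPM in HBR2340 and at 5.51, 7.19, 6.08 and 17.8 CPM in PHX2193. Cyclin B3, from cyb-3 (WBGene00000868, protein coding, WBcel235 chromosome V, 15395696 to 15397353, plus strand), was at 1.87, 1.25, 1.48 and 60.3 CPM in N2, 4.53, 4.72, 10.1 and 4.87 CPM in HBR2340 and at 2.40, 6.23, 3.39 and 42.5 CPM in PHX2193. In both genes the D libraries of N2 and PHX2193 were the highest. For cyb-3 the level in N2 D was 40.8 times the median of the other N2 libraries, and the level in PHX2193 D was 12.5 times the median of the other PHX2193 libraries. HBR2340 C was more than 2-fold above the other HBR2340 libraries for cyb-3, the 1 such case among the 34 genes in that strain, where 0.629% of all genes were. The log2 fold change of cyb-3 in HBR2340 against N2 was −1.43 ± 1.26 (edgeR adjusted p = 0.579) and 1.98 ± 0.94 without N2 D (edgeR adjusted p = 0.258).

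Cyclin A and the CDC25 phosphatases, which remove inhibitory phosphates from the kinases, differed less between libraries. The cyclin A gene cya-1 was between 15.8 and 23.1 CPM in all 12 libraries, and the phosphatase gene cdc-25.1 was between 15.7 and 24.0 CPM. The second phosphatase gene, cdc-25.2, was at 6.13 to 13.8 CPM in N2, 11.6 to 12.8 CPM in HBR2340 and at 11.5 to 16.1 CPM in PHX2193, and N2 B was its lowest library. Its log2 fold change in PHX2193 against N2 was 0.47 ± 0.20 (edgeR adjusted p = 0.393). The gene dos-1 on the opposite strand shares 107 bases, 5.14% of the exon bases of cya-1.

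Of the Rb and E2F regulators, 0 of 3 were called in any of the 3 comparisons by edgeR, DESeq2 or limma-voom, with 1, lin-35, under an unadjusted edgeR p of 0.05 in PHX2193 against HBR2340. The Rb gene lin-35, a repressor of S phase entry, was at 23.8, 19.3, 20.5 and 22.4 CPM in N2 libraries A to D, 20.9, 20.2, 17.7 and 19.6 CPM in HBR2340 and at 23.5, 21.9, 22.2 and 24.2 CPM in PHX2193. PHX2193 lay above HBR2340 without overlap, and N2 overlapped both. The log2 fold change was 0.23 ± 0.10 (edgeR adjusted p = 0.128). It was called with only the 2 strains compared in the fit (0.24, edgeR adjusted p = 0.0397) and without N2 B (0.24, edgeR adjusted p = 0.0420), while the other 11 fits that left out 1 library gave adjusted p up to 0.252. The E2F gene efl-1 was at 3.52 CPM in N2 B and 12.1, 12.4 and 15.4 CPM in N2 A, C and D, and between 11.5 and 15.8 CPM in the 8 libraries of HBR2340 and PHX2193. This was the 1 case among the 34 genes of a library more than 2-fold below every other library of its strain. The E2F partner gene dpl-1 was also lowest in N2 B (4.48 CPM), with 7.15 to 12.3 CPM in the other N2 libraries, 7.02 to 8.57 CPM in HBR2340 and at 6.52 to 10.5 CPM in PHX2193.

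The 9 origin licensing genes encode the subunits of the MCM helicase (mcm-2 to mcm-7), its loaders cdt-1 and cdc-6, and the origin recognition subunit orc-2. EdgeR, DESeq2 and limma-voom called 0 of 9 in every comparison, with 1, orc-2, under an unadjusted edgeR p of 0.05 in PHX2193 against HBR2340. The helicase gene mcm-2 was at 4.51, 4.59, 3.73 and 13.6 CPM in N2 libraries A to D, 6.30, 7.09, 4.22 and 3.94 CPM in HBR2340 and at 2.99, 3.10, 4.46 and 13.5 CPM in PHX2193. The helicase gene mcm-7 was at 3.52, 2.95, 2.99 and 22.9 CPM in N2, 5.64, 4.21, 5.56 and 5.72 CPM in HBR2340 and at 2.48, 5.08, 4.02 and 13.99 CPM in PHX2193. In both genes N2 D and PHX2193 D were the highest libraries of all, while HBR2340 D was the lowest of its strain for mcm-2 and within 0.1 CPM of HBR2340 A for mcm-7. The other 4 helicase genes had 18.6 to 23.6 CPM in N2 D against 3.18 to 11.1 CPM in the other N2 libraries, and 12.4 to 19.9 CPM in PHX2193 D against 2.52 to 10.3 CPM in the other PHX2193 libraries.

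The loader gene cdt-1 was also highest in N2 D and PHX2193 D, while cdc-6 and orc-2 differed less. The level of cdt-1 was 4.36 CPM in N2 D and 1.56 to 1.84 CPM in N2 A to C, and 2.67 CPM in PHX2193 D and 1.14 to 1.74 CPM in PHX2193 A to C. In contrast, cdc-6 was at 11.9 CPM in N2 D and 11.8, 18.7 and 11.2 CPM in N2 A to C, and at 12.4 CPM in PHX2193 D. For orc-2 the ratio of library D to the median of the other libraries was 1.15 in N2 and 1.11 in PHX2193. The gene was at 15.1 to 17.7 CPM in HBR2340 and at 11.2 to 15 CPM in PHX2193, without overlap, with a log2 fold change of −0.32 ± 0.14 (edgeR adjusted p = 0.146). N2 had 12.9 to 19.97 CPM and overlapped both.

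The 3 genes of fork and nucleotide supply gave 0 calls by edgeR, DESeq2 and limma-voom and 0 unadjusted edgeR p under 0.05 in any comparison. The sliding clamp gene pcn-1 (PCNA) was at 5.21, 5.90, 4.38 and 34.5 CPM in N2 libraries A to D, 7.42, 7.06, 10.4 and 6.57 CPM in HBR2340 and at 4.75, 6.47, 6.12 and 25.34 CPM in PHX2193. The ribonucleotide reductase large subunit gene rnr-1 was at 3.99, 5.56, 4.55 and 17.9 CPM in N2, 6.06, 5.34, 6.12 and 6.86 CPM in HBR2340 and at 3.83, 4.48, 4.35 and 13.04 CPM in PHX2193. Both genes had single high values in N2 D and PHX2193 D. Outside these, N2 and PHX2193 lay below every HBR2340 library for pcn-1, and for rnr-1 PHX2193 did so while N2 B was within the HBR2340 range. The small subunit gene rnr-2 was also highest in the same libraries, with 62.5 CPM in N2 D against 19.2 to 32.8 CPM in N2 A to C and 51.3 CPM in PHX2193 D against 22.1 to 24.5 CPM in PHX2193 A to C.

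The mitotic kinases Polo (plk-1), Aurora A (air-1) and Aurora B (air-2) and the kinetochore scaffold gene knl-1 also gave 0 calls by the 3 tools and 0 unadjusted edgeR p under 0.05. For air-2 the level was 7.14 CPM in N2 D against 0.624 to 1.13 CPM in N2 A to C, and 6.18 CPM in PHX2193 D against 0.799 to 2.06 CPM in PHX2193 A to C. For air-1 it was 12.2 CPM in N2 D against 1.81 to 2.30 CPM, and 8.02 CPM in PHX2193 D against 2.19 to 3.10 CPM. In HBR2340, library D was the lowest of its strain for plk-1 (5.48 CPM), air-1 (1.58 CPM) and air-2 (1.34 CPM). The level of knl-1 was 10.6 CPM in N2 D and 10.01 CPM in PHX2193 D, less than 2-fold above the next library of the strain (5.47 CPM in N2 A and 6.23 CPM in PHX2193 C).

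The 3 ubiquitin ligase genes did not share the pattern of the D libraries. The cullin gene cul-1 (WBGene00000836, protein coding, WBcel235 chromosome III, 10471237 to 10475129, plus strand), the scaffold of SCF ligases that degrade cell cycle regulators, was at 78.5, 152.5, 146.3 and 70.2 CPM in N2 libraries A to D. It was at 69.7, 77.7, 72.5 and 71.4 CPM in HBR2340 and at 78.5, 82.8, 87.0 and 73.2 CPM in PHX2193. N2 held a pair of high libraries, B and C, and a pair, A and D, that were within or near the range of the other strains. HBR2340 against N2 gave a log2 fold change of −0.62 ± 0.22 (edgeR adjusted p = 0.113). It was called without N2 D (−0.79 ± 0.18, edgeR adjusted p = 0.0248), the 1 lower call of the 34 genes in that fit beside 0 higher, where 3.91% of all genes were lower and 2.77% higher, and the highest edgeR adjusted p over the 12 fits without 1 library was 0.246. The F-box gene lin-23, a partner of cul-1, was at 128 to 235.3 CPM in N2, 146 to 157 CPM in HBR2340 and at 144 to 169.5 CPM in PHX2193. The gene fzr-1, whose product activates the anaphase-promoting complex in G1, was at 58.9 to 93.1 CPM in N2, 71.5 to 79.3 CPM in HBR2340 and at 70.4 to 82.9 CPM in PHX2193. N2 B was the highest library for all 3 ligase genes.

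Across the 34 genes, N2 D was more than 2-fold above every other N2 library in 14 genes, beside 4.03% of all genes tested. PHX2193 D was more than 2-fold above every other PHX2193 library in 14 genes, beside 2.31% of all genes, and HBR2340 D in 0 genes, beside 0.214%. The same 12 genes met the rule in both strains, and 18 met it in neither. These libraries were picked out after their values were seen, so the shares are a description. Library D held the highest level of its strain for 23 genes in N2, 25 in PHX2193 and 6 in HBR2340. The median log2 ratio of library D to the median of the other 3 was 0.997 over the 34 genes in N2 and −0.02 over all genes, and 0.74 and −0.01 in PHX2193.

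The pattern followed the roles. In N2 D the median ratio was 4.78 for the mitotic kinases with knl-1, 3.94 for fork and nucleotide supply, 3.24 for the S and M phase genes and 3.01 for origin licensing. In PHX2193 D it was 3.43, 2.998, 2.06 and 3.45 for these 4 roles. Inhibitors, G1 genes and Rb with E2F had median ratios of 1.05, 1.13 and 1.28 in N2 D and 1.02, 1.07 and 1.27 in PHX2193 D. The ubiquitin ligases had 0.816 and 0.877. By role, the genes more than 2-fold above in N2 D were 7 of 9 in licensing, 3 of 6 among the S and M phase genes, 2 of 3 in fork and nucleotide supply and 2 of 4 among the mitotic kinases. In PHX2193 D they were 5 of 9, 3 of 6, 3 of 3 and 3 of 4. None of the inhibitors, the G1 genes, the Rb and E2F genes or the ligases met the rule in either library.

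**Figure D3:**
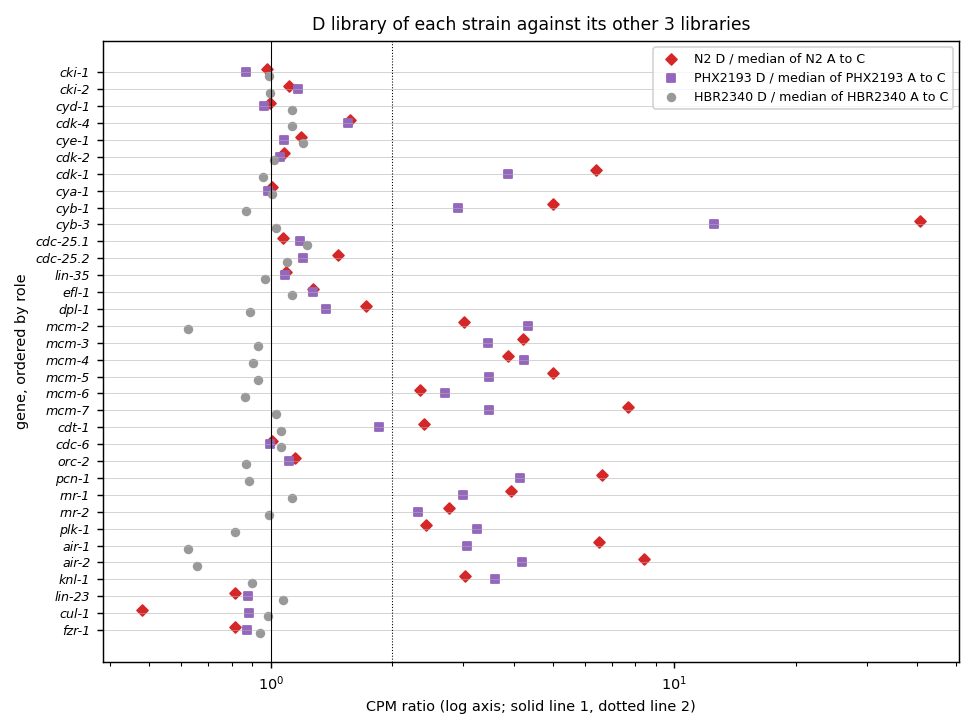
Ratio of the CPM level in library D of each strain to the median of the other 3 libraries of that strain, per gene on a log axis, with lines at 1 and 2. Red diamonds (N2) and purple squares (PHX2193) of the S and M phase, licensing, fork and mitotic genes lie mostly to the right of 2, up to 40.8 for cyb-3 in N2, while the grey circles (HBR2340) lie between 0.622 and 1.23.

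Markers of oocytes and embryos moved with the same libraries. The summed level of the 16 markers was 205 CPM in N2 D against 43.4 to 57.0 CPM in N2 A to C, and 145 CPM in PHX2193 D against 46.2 to 58.0 CPM in PHX2193 A to C. In HBR2340 it was 49.7 to 68.4 CPM, with the highest value in library C. Of the 14 markers tested, 8 were more than 2-fold above every other library of the strain in N2 D, 9 in PHX2193 D and 0 in HBR2340 D, and none of the 16 was at 0 in all libraries of a strain. The maternal RNA-binding protein gene pos-1, chosen with spn-4 after its values were seen, was at 1.34, 0.340, 1.51 and 60.8 CPM in N2 libraries A to D, 2.68, 3.90, 10.5 and 3.69 CPM in HBR2340 and at 2.06, 5.89, 1.95 and 37.6 CPM in PHX2193. Another such gene, spn-4, was at 35.9 CPM in N2 D, 21.8 CPM in PHX2193 D and 7.39 CPM in HBR2340 C, and at 0.630 to 3.77 CPM in the other 9 libraries. HBR2340 C, the library with the highest cyb-3 of its strain, was also the highest of its strain for pos-1 and spn-4. The list as a whole did not stand out there. Of the 14 markers tested, 1 was more than 2-fold above every other HBR2340 library in HBR2340 C, and the median log2 ratio was 0.28. Of 12 germ cell markers, 2 (nos-2 and gld-1) were more than 2-fold above in N2 D and 5 in PHX2193 D. The summed level of the 12 was 133 CPM in N2 D against 53.5 to 108 CPM in N2 A to C. In PHX2193 D it was 126 CPM against 46.8 to 82.2 CPM in PHX2193 A to C. Their median log2 ratio was 1.22 in N2 D and 1.86 in PHX2193 D. For the oocyte and embryo markers it was 1.88 and 1.74. In HBR2340 C the summed germ cell level was 66.4 CPM, the lowest of its strain, where the other libraries had 78.8 to 84.0 CPM. Of the markers tested for intestine, body muscle, M lineage, neurons and epidermal blast cells, 0 met the rule in N2 D or PHX2193 D. Of 3 sperm markers tested, 1 did in both libraries, spe-44, at 2.09 CPM in N2 D and 2.14 CPM in PHX2193 D and at 0.192 to 0.780 CPM in the other 10. The part of embryo, oocyte or germ cell RNA in the levels of the cell cycle genes was not tested.

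**Figure D4:**
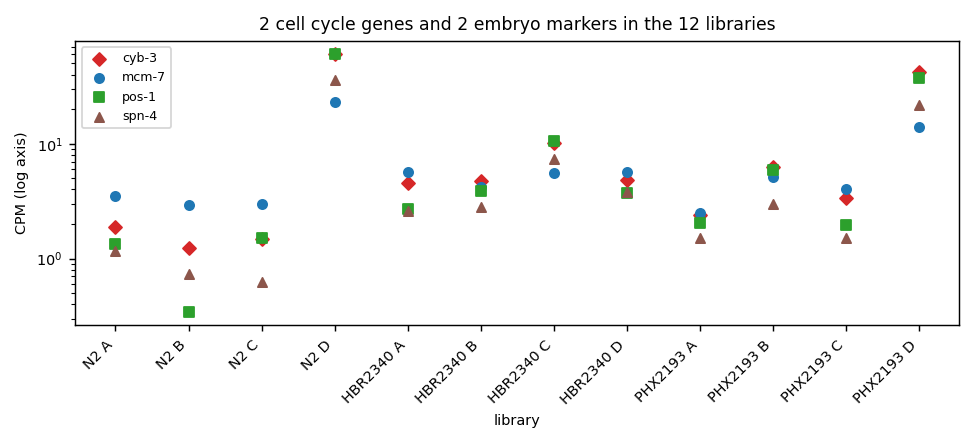
Level in CPM on a log axis of cyb-3, mcm-7 and the maternal genes pos-1 and spn-4 in each of the 12 libraries. All 4 genes peak in N2 D and PHX2193 D, and cyb-3, pos-1 and spn-4 have a smaller peak in HBR2340 C, where cyb-3 is at 10.1 CPM and pos-1 at 10.5 CPM. The maternal genes shown were picked from the oocyte and embryo markers after their values were seen.

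The comparisons were repeated without N2 D and PHX2193 D, a choice made after many of the 34 genes were seen to be high there. Leaving these libraries out lowers N2 and PHX2193 for those same genes. Their calls and directions in such fits are therefore a description and not an independent test. In PHX2193 against HBR2340, cki-1 (1.27 ± 0.20, edgeR adjusted p = 0.00235), cki-2 (0.57 ± 0.16, edgeR adjusted p = 0.0339) and cdk-2 (0.35 ± 0.11, edgeR adjusted p = 0.0495) were again the 3 genes called higher and 0 were called lower, beside 8.83% and 7.56% of all genes tested. In HBR2340 against N2, 1 gene was called higher and 1 lower, beside 3.07% and 3.99% of all genes. The higher gene was cyb-3 (1.97 ± 0.41, edgeR adjusted p = 0.0196), whose direction was opposite to that with all libraries, and the lower gene was cul-1 (−0.80 ± 0.19, edgeR adjusted p = 0.0340). In PHX2193 against N2, 0 were called, with 6 at an unadjusted edgeR p under 0.05, beside 0% of all genes higher and 0.0251% lower. With all libraries, 28 of 34 log2 fold changes were below 0 in HBR2340 against N2, and without both D libraries 12 were. In PHX2193 against HBR2340, 6 of 34 were below 0 with all libraries and 18 without both D libraries. The median of the 34 genes in HBR2340 against N2 went from −0.25 to 0.10, while that of all genes went from −0.04 to −0.02.

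**Figure D5:**
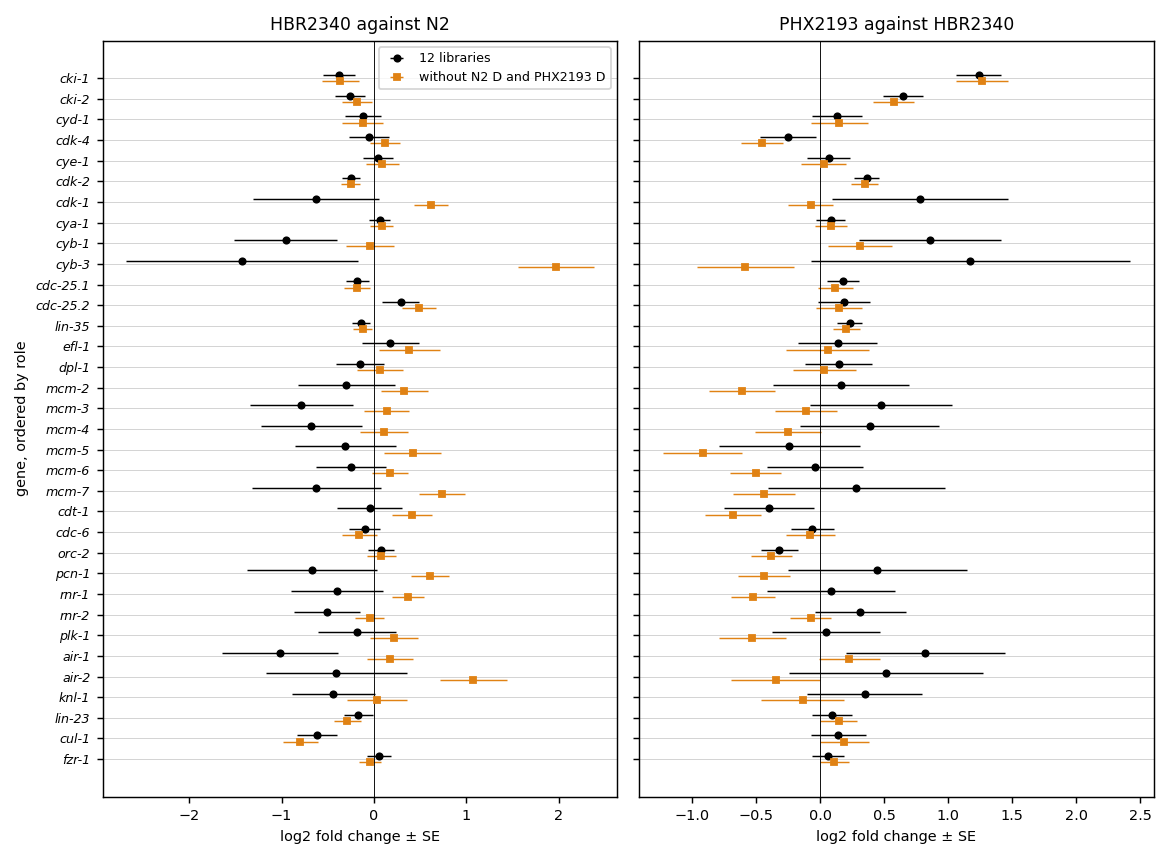
Log2 fold change with its SE for each of the 34 genes, in HBR2340 against N2 (left) and PHX2193 against HBR2340 (right), from all 12 libraries (black circles) and without N2 D and PHX2193 D (orange squares). In the right panel cki-1 stays at 1.24 and 1.27 and cki-2 at 0.65 and 0.57, while in the left panel cyb-3 goes from −1.43 to 1.97.

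Without N2 B as well, 5 genes were called higher and 2 lower in HBR2340 against N2, beside 8.28% and 10.4% of all genes. The higher genes were cyb-3 (1.86 ± 0.47), mcm-5 (0.89 ± 0.23), pcn-1 (0.71 ± 0.21), cdk-1 (0.64 ± 0.19) and rnr-1 (0.50 ± 0.16), with edgeR adjusted p from 0.0198 to 0.0495. The lower genes were cki-1 (−0.60 ± 0.12) and cul-1 (−0.63 ± 0.18), with edgeR adjusted p of 0.00653 and 0.0406. Between PHX2193 and HBR2340 the same 3 genes were higher and 5 were lower, beside 18.1% and 16% of all genes. Those lower were mcm-5 (−0.91 ± 0.20), cdt-1 (−0.67 ± 0.21), rnr-1 (−0.51 ± 0.14), cdk-4 (−0.45 ± 0.14) and orc-2 (−0.37 ± 0.10), with edgeR adjusted p from 0.00443 to 0.0302. In PHX2193 against N2, cki-1 was higher (0.67 ± 0.13, edgeR adjusted p = 0.0437) and 0 were lower, beside 0.465% and 0.361% of all genes. N2 is left with 2 libraries in these fits, and its spread is taken to be like that of the other strains. The calls of genes that were high in the D libraries follow in part from the choice of what was left out.

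Further genes of the same processes were taken from 10 lists with 231 genes in the table, of which 227 were tested. EdgeR called 7 higher and 5 lower in PHX2193 against HBR2340, where DESeq2 called 8 and 6 and limma-voom 7 and 5. Both counts are smaller shares of the 227 genes than the 10.1% and 9.39% called over all genes. In HBR2340 against N2 edgeR called 0 higher and 1 lower, with 16 at an unadjusted p under 0.05, 0 higher and 4 lower by DESeq2 and 0 by limma-voom. In PHX2193 against N2 edgeR called 0, with 5 at an unadjusted p under 0.05, 2 called higher by DESeq2 and 0 by limma-voom. Without N2 B, edgeR called 10 higher and 7 lower in HBR2340 against N2, beside 7.93% and 9.8% of all genes. It called 1 and 0 in PHX2193 against N2, beside 0.739% and 0.665%. In PHX2193 against HBR2340 it called 12 and 16, beside 17.3% and 15.6%. All of these counts are smaller shares of the 227 genes than those of all genes. With all 12 libraries, edgeR called 0 of the 35 further licensing and replication fork genes in every comparison. It also called 0 of the 28 kinetochore, centromere and spindle checkpoint genes. In these lists 0 and 1 genes had an unadjusted p under 0.05. DESeq2 called 1 kinetochore gene higher in PHX2193 against HBR2340 and limma-voom 0. Without both D libraries, edgeR called 0 licensing genes and 1 kinetochore gene, knl-2, higher in HBR2340 than in both other strains. Without N2 B as well, PHX2193 against HBR2340 had 2 licensing genes higher and 4 lower, beside 18.1% and 16% of all genes. There 1 kinetochore gene was higher and 2 lower. HBR2340 against N2 then had 1 licensing and 3 kinetochore genes higher, beside 8.28%.

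Among regulators outside the 34 genes, the Polo family kinase gene plk-2 was at 9.11, 2.27, 14.9 and 8.55 CPM in N2 libraries A to D, 3.69 to 3.93 CPM in HBR2340 and at 11.8 to 16.1 CPM in PHX2193. PHX2193 against HBR2340 gave a log2 fold change of 1.83 ± 0.38 (edgeR adjusted p = 0.00506). The gene cdt-2, whose product directs a cullin ligase to the licensing factor CDT-1, was at 6.81, 1.98, 5.81 and 5.35 CPM in N2 libraries A to D, 2.85 to 3.17 CPM in HBR2340 and at 7.52 to 9.69 CPM in PHX2193, a log2 fold change of 1.43 ± 0.29 between both strains (edgeR adjusted p = 0.00372). In both genes N2 B was the lowest of the 12 libraries and PHX2193 did not overlap HBR2340. The spindle gene zyg-9 was higher in PHX2193 than in HBR2340 (0.52 ± 0.09, edgeR adjusted p = 0.00188), and lin-61, a repressor of the synMuv B class, was lower (−0.52 ± 0.13, edgeR adjusted p = 0.0119). The calls of these 4 genes held in all 12 fits without 1 library.

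Other calls in PHX2193 against HBR2340 were less stable. The anaphase-promoting complex gene gfi-3 (0.34 ± 0.10), the heterochronic gene lin-29 (1.102 ± 0.30) and the energy sensor kinase gene aak-1 (0.92 ± 0.27) were higher, and the cullin adaptor gene ddb-1 (−0.49 ± 0.14) and the centrosome gene spd-2 (−0.71 ± 0.21) were lower, with edgeR adjusted p from 0.0210 to 0.0344. The calls of ddb-1 and spd-2 ended without any 1 HBR2340 library and without PHX2193 B, C or D (highest edgeR adjusted p 0.0920 and 0.0953). That of aak-1 ended without any 1 HBR2340 library and without PHX2193 A, B or D (0.0682). That of lin-29 ended without HBR2340 A, B or D or PHX2193 B or C (0.0591), and that of gfi-3 without HBR2340 B or D or PHX2193 A, B or C (0.0792). The 1 call in HBR2340 against N2 was aak-1 (−1.001 ± 0.27, edgeR adjusted p = 0.0389), whose log2 fold change was −0.55 without N2 B, where it was still called. It ended without any 1 library of HBR2340 or PHX2193 (highest edgeR adjusted p 0.0982).

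The D libraries of N2 and PHX2193 stood out in part of these lists as well. In N2 D, 42 of the 227 genes were more than 2-fold above every other N2 library, in PHX2193 D 35 were, and in HBR2340 D 0 were. The licensing and replication fork list held 16 of 35 in N2 D and 12 of 35 in PHX2193 D, among them orc-1, the geminin gene gmn-1 and the GINS subunit genes psf-1, psf-2 and psf-3 in both, named after their values were seen. The origin recognition gene orc-1 was at 1.65, 1.82, 0.849 and 9.30 CPM in N2 libraries A to D, 1.18 to 2.46 CPM in HBR2340 and at 0.967, 1.68, 2.32 and 5.47 CPM in PHX2193. The kinetochore list held 14 of 28 and 11 of 28. The list of 21 DREAM and synMuv B repressor genes held 0 in both libraries.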

How the data were processed

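RNA from whole larvae was sequenced in 12 libraries, and the authors deposited raw read counts per gene. Bowtie 0.12.2 and the builds WBcel235 and mm8 are named per the submitters' processing notes, with no role for either build. The counting program, annotation, strandedness and treatment of reads with several matches were not given in the sources used here. Positions of genes come from a WBcel235 annotation.

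From the counts, genes were kept by edgeR's filterByExpr (minimum count 10, minimum total count 15), which removed 31026 genes and left 15908, all 34 cell cycle genes among them. Strains were compared in 1 fit over all 12 libraries with edgeR 4.0.16 (TMM scaling, robust quasi-likelihood, R 4.3.3), with 9 residual degrees of freedom and a common biological coefficient of variation of 0.276. The edgeR p-values of this fit were adjusted over the 15908 genes (Benjamini-Hochberg), with a threshold of 0.05. Alternative fits were filtered anew and adjusted over the genes kept there, such as 16356 without both D libraries and N2 B. SE is the log2 fold change divided by the square root of F. The script was tested on simulated data. TPM used exon lengths of the annotation. The closest pair of replicates differed by a chi-square of 15.7 per degree of freedom, beyond counting noise, so each library counted as 1 sample. Intervals from counting were not used, and the floor of 3 counts covers counting error only.

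Alternatives were other scalings, no filter, DESeq2 1.42.0, limma-voom (limma 3.58.1), only the 2 strains compared, a replicate block, no robust estimation and leaving out each library. Leaving out both D libraries, and N2 B as well, was added after the data were seen. Per-library values were to be given for the called genes and 10 others spread over the roles, and up to 2 called genes were named from each further list. Values per library are also printed for other genes, picked after their values were seen. The members and lists were chosen with earlier results of these data known. A promoter motif search was not run, and no sequence is used here.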

Additional observations from a re-analysis of the deposited data

Results flagged for a closer look

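In each strain, the highest and lowest of the 4 libraries was compared with the other 3 for each of the 34 genes, which gave 102 groups. A value was marked when its gap to the nearest library was larger, as a part of the whole range, than Dixon's critical value. Chance would mark about 1 in 20 groups if values were normal and groups independent. Here 26 were marked, of which 12 lay in N2 D and 8 in PHX2193 D. The groups share the same 12 libraries and their genes vary together, so this count cannot be set against that rate.

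N2 D was the high library for the mitotic kinase gene cdk-1 (22.7 CPM) and the cyclin B3 gene cyb-3 (60.3 CPM). It was also high for the helicase genes mcm-2 (13.6 CPM), mcm-3 (18.6 CPM), mcm-4 (21.9 CPM), mcm-6 (23.6 CPM) and mcm-7 (22.9 CPM) and for cdt-1 (4.36 CPM). The same held for pcn-1 (34.5 CPM), rnr-1 (17.9 CPM), air-1 (12.2 CPM) and air-2 (7.14 CPM).

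PHX2193 D was the high library for cdk-1 (21.6 CPM), cyb-1 (17.8 CPM), cyb-3 (42.5 CPM) and mcm-2 (13.5 CPM). It was also high for pcn-1 (25.34 CPM), rnr-1 (13.04 CPM), rnr-2 (51.3 CPM) and air-1 (8.02 CPM).

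The other marked values were smaller departures. The loader gene cdc-6 was high in N2 B (18.7 CPM) and low in PHX2193 B (10.3 CPM). In HBR2340, cki-2 was low in C (7.18 CPM), cya-1 low in A (18.6 CPM), mcm-7 low in B (4.21 CPM) and cyb-3 high in C (10.1 CPM).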

How the results depend on the processing

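Of the single-gene results under the alternatives, 2217 kept their call or stayed without a call. Direction was not compared where there was no call. A further 17 gained a call, 3 lost it and 7 turned direction with a call. Genes called in HBR2340 against N2 numbered 1173, with 1825 by DESeq2, 627 with only the 2 strains compared and 661 to 2880 when 1 library was left out. In PHX2193 against N2, 58 were called, with 434 by DESeq2, 3 with only the 2 strains compared and 7 to 228 when 1 library was left out (the lowest without PHX2193 C, the highest without N2 B). In PHX2193 against HBR2340, 3106 were called, with 5316 from only the 2 strains compared and 2237 to 5339 when 1 library was left out. Without both D libraries PHX2193 against N2 gave 4 genes, and without N2 B as well the 3 comparisons gave 3049, 135 and 5584. Of the 34 genes, the count higher in HBR2340 against N2 was 1 without both D libraries and 5 without N2 B as well, and the count lower was 1 and 2, and 0 to 2 when 1 library was left out. The count higher in PHX2193 against N2 was 1 with no filter, by DESeq2 and without both D libraries and N2 B, and 0 to 1 when 1 library was left out. The count lower in PHX2193 against HBR2340 was 5 without both D libraries and N2 B, and the count higher was 2 to 4 when 1 library was left out.

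Directions turned, with a call, in HBR2340 against N2 for cyb-3 (1.97 without both D libraries, 1.86 without N2 B as well), cdk-1 (0.64), mcm-5 (0.89), pcn-1 (0.71) and rnr-1 (0.50), the last 4 without all 3 libraries. In PHX2193 against HBR2340 rnr-1 turned to −0.51 without all 3. The D libraries were left out because such genes were high there, so these turns follow in part from that choice. The cause was not tested.

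With the replicate letter as a replicate block, 1053 genes were called in HBR2340 against N2 (0 of the 34), 24 in PHX2193 against N2 (0 of the 34) and 3063 between both mutants (3 of the 34). The labels do not say that letters mark a shared batch. Same-letter libraries had correlated deviations over 0.1 in 3 of 12 pairs (range −0.18 to 0.66, with up to 0.37 in other pairs). The highest value, 0.66, was that of N2 D with PHX2193 D. HBR2340 D had −0.07 with N2 D and −0.03 with PHX2193 D. The letters were not treated as pairing. The low levels of cdt-1 and air-2 may limit what could be detected. In HBR2340 against N2 their SEs were 0.35 and 0.76. Genes at higher levels had SEs of 0.69 (cdk-1), 0.70 (pcn-1) and 1.26 (cyb-3), so the spread between libraries limits detection as well.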
